A study of Mus musculus with 28 samples.

Results

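The brain endothelial and barrier genes described here are 10 of the 23038 genes in the deposited expression tables. They were chosen by symbol, with earlier results of these data known, and they are Cldn5, Pecam1, Slc2a1, Abcb1a, Mfsd2a, Ly6c1, Flt1, Kdr, Tek and Tie1. All 10 were listed in every table and all 10 passed the filter on low counts in every comparison. The libraries come from Nova1 hu/hu mice, a CRISPR/Cas9 knock-in in which both alleles of the RNA-binding protein NOVA1 carry the modern human residue at a site where mice have another one, and from wild-type Nova1 wt/wt littermates. Both genotypes are on the C57BL/6J background, written BL6 in the labels. There are 28 libraries: each genotype has 6 of midbrain at E18.5, 4 of midbrain at P21 and 4 of cortex at P21. The knock-in is in every cell, so no comparison here separates endothelial cells from their neighbours.

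Endothelial cells line the brain's vessels and form the blood-brain barrier. Tight junctions seal the gaps between them, transcytosis is kept low, and dedicated transporters carry glucose, lipids and other nutrients inward and drugs outward. The barrier is set up during embryonic vessel growth, under VEGF, Wnt and angiopoietin signals, and its transporters continue to mature after birth. In bulk tissue, fewer endothelial cells and less RNA per endothelial cell cannot be told apart.

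Total counts per library ranged from 18550922 to 35047494 at E18.5, from 25256326 to 45134998 in P21 midbrain and from 30423267 to 35643736 in P21 cortex. The members had between 64 and 8924 counts in a library, the fewest for Ly6c1 at E18.5 and the most for Slc2a1 in P21 midbrain. Levels are given as TPM, counts scaled by exon length and by library so that genes can be compared. Summed TPM of 15 further endothelial genes, none of them members, was 219 to 304 at E18.5 and, at P21, 207 to 257 in midbrain and 212 to 262 in cortex, which overlap. None of the 15 genes was at 0 throughout a set. Choroid plexus markers ranged from 50.04 to 3697 summed TPM over the E18.5 libraries and from 16.4 to 3067 over the P21 midbrain libraries, and the part of these cells in the results was not tested.

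The promoters of 4 members are shown because the results turn on these genes. Flt1 and Kdr are related VEGF receptors that moved in opposite directions with age, Ly6c1 had the largest age difference of the 10, and Tie1 had the largest genotype difference. Each is the 300-base RefSeq window on GRCm38.p6 from 250 bases before to 50 after a transcript start, written 5′ to 3′ on the strand of the gene. Capitals mark the letters GGAA, the core that ETS transcription factors bind, on either strand (TTCC is GGAA on the other strand).
Flt1, chr5:147725962-147726261, minus strand: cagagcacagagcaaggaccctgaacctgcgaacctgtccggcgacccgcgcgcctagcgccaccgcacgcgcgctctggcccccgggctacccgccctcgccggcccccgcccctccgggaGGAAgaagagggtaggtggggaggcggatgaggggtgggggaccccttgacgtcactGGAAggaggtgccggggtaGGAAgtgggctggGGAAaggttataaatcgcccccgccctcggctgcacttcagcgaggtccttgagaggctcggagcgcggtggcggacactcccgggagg
Kdr, chr5:75978406-75978705, minus strand: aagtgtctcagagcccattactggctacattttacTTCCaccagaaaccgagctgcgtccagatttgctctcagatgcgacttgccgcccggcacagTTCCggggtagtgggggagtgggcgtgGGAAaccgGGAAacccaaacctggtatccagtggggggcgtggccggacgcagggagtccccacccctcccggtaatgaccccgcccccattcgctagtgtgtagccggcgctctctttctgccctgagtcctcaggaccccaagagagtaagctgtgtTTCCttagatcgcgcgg
Ly6c1, chr15:75048788-75049087, minus strand: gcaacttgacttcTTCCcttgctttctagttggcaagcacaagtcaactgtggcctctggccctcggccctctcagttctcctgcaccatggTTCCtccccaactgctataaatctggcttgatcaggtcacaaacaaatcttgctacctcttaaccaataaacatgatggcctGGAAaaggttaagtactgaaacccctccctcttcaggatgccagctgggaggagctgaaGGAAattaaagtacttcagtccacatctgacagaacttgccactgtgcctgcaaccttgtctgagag
Tie1, chr4:118489800-118490099, minus strand: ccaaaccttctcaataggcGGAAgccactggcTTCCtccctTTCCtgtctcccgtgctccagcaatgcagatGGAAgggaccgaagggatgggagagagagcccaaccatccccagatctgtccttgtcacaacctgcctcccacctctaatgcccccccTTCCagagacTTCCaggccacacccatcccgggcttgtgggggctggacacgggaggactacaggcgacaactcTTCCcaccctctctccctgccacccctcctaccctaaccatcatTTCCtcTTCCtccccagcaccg
RefSeq windows were at hand for 9 of the 10 members, Pecam1 being the exception. GGAA was present in 7 of these 9 windows, against 96.0% of all 32851 promoter windows of this length, so its presence does not set the members apart. The Tie1 window held 9 copies, the Kdr window 5, and the Flt1 and Ly6c1 windows 4 each, where the median window of all promoters held 3. For Ly6c1 the table has another window, from a start site further into the gene (chr15:75048614-75048913), which held 8 copies and is not in the counts here. The longer form GGAAG was found in 5 of the 9 members and in 71.4% of all windows. The forkhead form AAACA was found in 4 members (50.5% of all windows), the GC box CCGCCC in 4 (35.7%) and the TATA form TATAAA in 3 (13.6%), namely Slc2a1, Ly6c1 and Flt1. These are matches of letters, searched on both strands, and GGAAG matches are also GGAA matches.

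The highest of the 10 in every set was Slc2a1, the glucose transporter GLUT1. In E18.5 midbrain the mean levels over 12 libraries ran from Slc2a1 (100 TPM) through Mfsd2a (62.1), Cldn5 (60.0), Kdr (41.5), Pecam1 (29.0), Flt1 (18.51), Tek (17.4), Tie1 (16.3) and Abcb1a (14.1) to Ly6c1 (11.8). At this age only Slc2a1 did not overlap its neighbour in the order, and each further neighbouring pair had overlapping ranges over libraries. In P21 midbrain the order over 8 libraries was Slc2a1 (221 TPM), Mfsd2a (142), Ly6c1 (81.0), Cldn5 (45.7), Abcb1a (28.5), Flt1 (24.9), Pecam1 (23.3), Kdr (15.01), Tek (14.98) and Tie1 (13.6). Here the first 5 genes were separated from each other in every library, Abcb1a overlapped Flt1, Flt1 overlapped Pecam1, and Kdr, Tek and Tie1 overlapped each other. In P21 cortex the order was Slc2a1 (167 TPM), Ly6c1 (81.4), Mfsd2a (80.1), Cldn5 (43.1), Abcb1a (23.2), Flt1 (20.6), Pecam1 (19.7), Tek (12.9), Tie1 (11.7) and Kdr (11.5), where Ly6c1 and Mfsd2a overlapped, as did Abcb1a, Flt1 and Pecam1 in turn, and the last 3 genes. Ly6c1 thus moved from the last place at E18.5 to near the top at P21, and Kdr from the fourth place to the eighth in P21 midbrain and the last in P21 cortex.

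**Figure D1:**
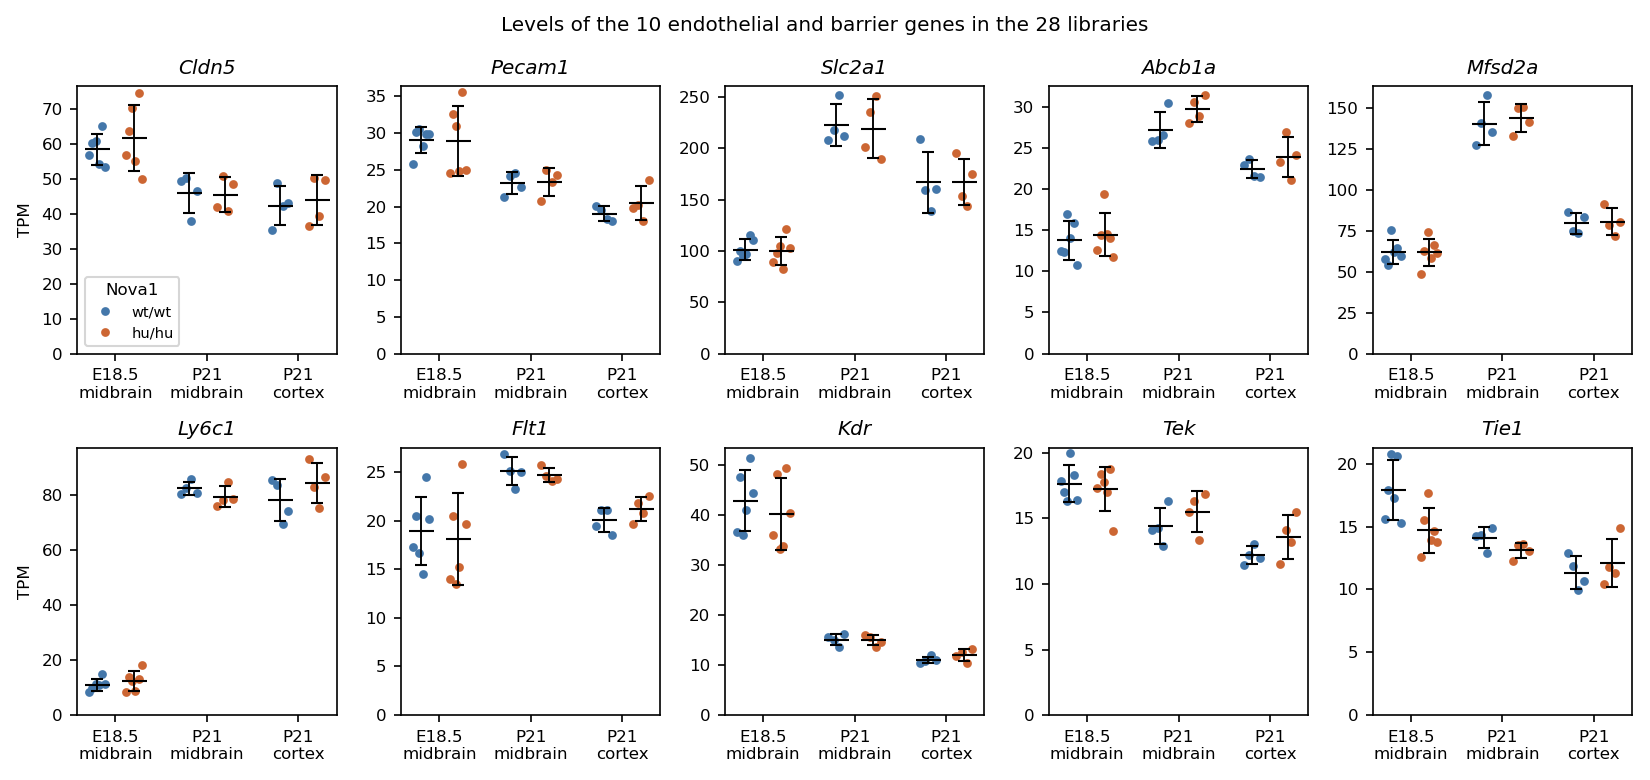
TPM of each gene (y axis, from 0) in the 6 groups (x axis), with 1 point per library, blue for Nova1 wt/wt and orange for Nova1 hu/hu, and a black bar for the mean ± SD of 4 to 6 libraries. Ly6c1 rose from 8.21 to 18.2 TPM over the E18.5 libraries to 69.6 or more at P21, Kdr fell from 33.1 or more to 16.1 or less, and the genotypes overlapped in every panel.

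The first comparison asked how these genes differ between late embryonic and juvenile midbrain. The 4 genes Ly6c1, Mfsd2a, Slc2a1 and Abcb1a were higher at P21 by 2.33-fold to 7.84-fold, Flt1 was higher by 1.55-fold, Kdr was lower by 2.40-fold, Cldn5 was slightly lower, and Pecam1, Tek and Tie1 did not pass the test. Of the 10 members, 5 were called higher and 2 lower, while 42.4% of all 16330 genes tested were called higher and 43.3% lower, so being called is not unusual in this comparison. At least 2-fold differences were called for 4 members upward and 1 downward, against 15.9% and 14.6% of all genes. Libraries of the 2 ages did not overlap in TPM for 5 members, against 60.1% of all genes. The median log2 fold change was 0.31 over the members and −0.02 over all genes, and the median size regardless of direction was 0.92 against 0.62. The labels give no library batch, so age and any difference in how embryonic and juvenile libraries were made cannot be told apart.

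Ly6c1 (chr15:75044018-75048920), which encodes a GPI-anchored surface protein of the Ly6 family that marks brain endothelium, changed most. In E18.5 midbrain it ranged from 8.28 to 18.2 TPM in the Nova1 hu/hu group (median 12.8, n = 6), and its range in the Nova1 wt/wt group was 8.21 to 14.8 (median 11.04, n = 6). In P21 midbrain it was at 75.9, 78.2, 85.0 and 78.7 TPM in the Nova1 hu/hu libraries and at 80.6, 82.8, 85.9 and 80.7 in the Nova1 wt/wt libraries. Every P21 library was above every E18.5 library. The log2 fold change was 2.97 (SE 0.10, edgeR adjusted p = 9.77e-20). Its near copy Ly6c2, whose transcripts share 4.33% of the read-length windows of Ly6c1 and which marks some leukocytes, stayed at 0 to 1.28 TPM in midbrain.

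The transporters moved in the same direction. Slc2a1 (chr4:119108745-119137330) is the main route of glucose across the barrier, although astrocytes and other brain cells transcribe it too. Its level was 82.6 to 122 TPM over the 12 E18.5 libraries. At P21 it was 201, 236, 251 and 189 TPM in Nova1 hu/hu midbrain and 208, 217, 252 and 212 in Nova1 wt/wt midbrain, so the ages were separated (log2 fold change 1.34, SE 0.06, edgeR adjusted p = 7.69e-17). Mfsd2a (chr4:122946850-122961194), a lysophospholipid transporter that carries omega-3 fatty acids inward and holds transcytosis low, was at 48.8 to 75.5 TPM at E18.5. In P21 midbrain it was at 133, 150, 151 and 142 TPM in Nova1 hu/hu mice and at 127, 141, 158 and 136 in Nova1 wt/wt mice. All P21 libraries were higher, with a log2 fold change of 1.40 (SE 0.06, edgeR adjusted p = 8.39e-18). Abcb1a (chr5:8567091-8748575), the P-glycoprotein efflux pump, rose from 10.8 to 19.4 TPM at E18.5 to 25.8 to 31.5 at P21, again without overlap (log2 fold change 1.22, SE 0.07, edgeR adjusted p = 2.66e-14). Its copy Abcb1b shares 6.91% of the read-length windows of Abcb1a, and at 0.92 to 2.25 TPM in E18.5 and 2.01 to 3.57 in P21 midbrain it was far lower than Abcb1a.

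The VEGF receptors parted. Kdr (chr5:75932827-75979072), or VEGFR2, is the receptor through which VEGF-A drives endothelial growth and migration. It was at 33.1 to 49.3 TPM in E18.5 Nova1 hu/hu midbrain (median 38.2, n = 6) and at 36.0 to 51.4 in Nova1 wt/wt (median 42.7, n = 6). At P21 it had fallen to 15.9, 15.6, 13.7 and 14.6 TPM in Nova1 hu/hu and to 15.5, 14.9, 13.7 and 16.1 in Nova1 wt/wt mice. No P21 library reached the lowest E18.5 library, and the log2 fold change was −1.26 (SE 0.08, edgeR adjusted p = 2.52e-14). Flt1 (chr5:147561604-147726438), or VEGFR1, binds VEGF-A tightly with weak signalling and is known as a decoy. It ranged from 13.5 to 25.8 TPM at E18.5. In P21 midbrain it was at 25.8, 24.6, 24.1 and 24.3 TPM in Nova1 hu/hu and at 26.8, 25.1, 23.3 and 25.02 in Nova1 wt/wt mice, a range inside which 2 of the E18.5 libraries also lay. The test called it higher at P21 (log2 fold change 0.63, SE 0.09, edgeR adjusted p = 7.91e-07).

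Within a library, the ratio of Flt1 to Kdr TPM does not depend on the library's scale, and it was examined after the values of both genes had been seen. It was 0.353 to 0.524 over the E18.5 libraries, 1.55 to 1.77 in midbrain at P21 and 1.68 to 2 in cortex at P21. Kdr exceeded Flt1 in all 12 E18.5 libraries and Flt1 exceeded Kdr in all 16 P21 libraries. The mean log2 ratio differed by 1.91 between the ages in midbrain (exact permutation test, two-sided, p = 7.94e-06, which is the lowest that 125970 arrangements allow, adjusted p = 5.95e-05 over 15 ratio tests). The ratio of Slc2a1 to Cldn5 rose likewise, from 1.49 to 2.07 at E18.5 to 3.91 to 6.68 in P21 midbrain (exact permutation adjusted p = 5.95e-05). Slc2a1 (log2 fold change 1.34) and Cldn5 (−0.19) were already called in opposite directions with age, as Flt1 and Kdr were. Both ratio differences follow from those calls, so their p-values are not separate support. For the angiopoietin receptors, the ratio of Tie1 to Tek was 0.725 to 1.27 at E18.5 and 0.773 to 1.02 in P21 midbrain, and the difference of the mean log2 ratio was −0.02 (exact permutation p = 0.80).

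**Figure D2:**
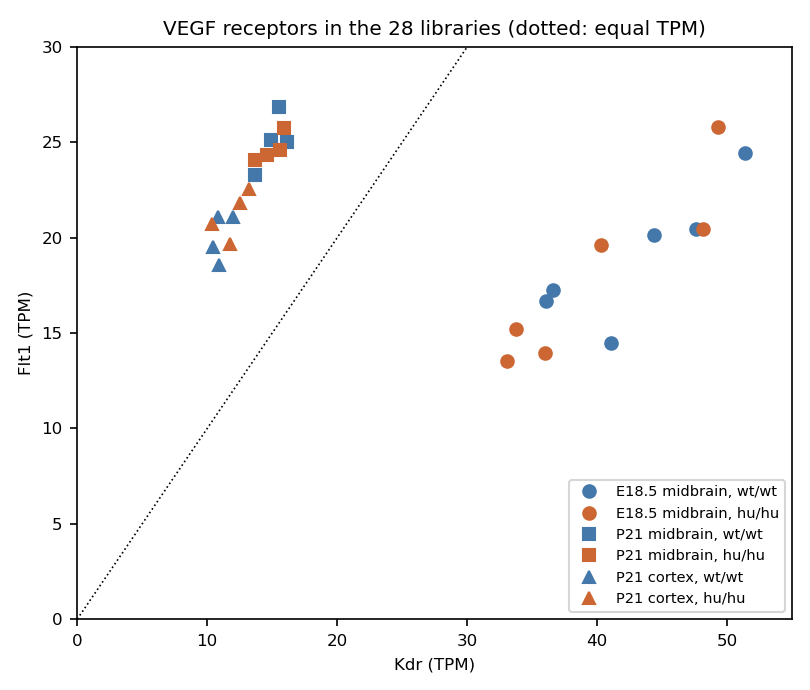
Flt1 TPM (y axis) against Kdr TPM (x axis) in the 28 libraries, with the age and region as the shape, the genotype as the colour, and a dotted line where both are equal. The 12 E18.5 libraries lie below the line, with ratios of 0.353 to 0.524, and the 16 P21 libraries above it, with ratios of 1.55 to 2.

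The junction and adhesion genes and the angiopoietin receptors differed least with age. Cldn5 (chr16:18776847-18778262), the main claudin of brain endothelial tight junctions, was at 49.8 to 74.5 TPM at E18.5 and at 37.8 to 50.8 in P21 midbrain. These ranges touched, and the log2 fold change was −0.19 (SE 0.07, edgeR adjusted p = 0.0128). Pecam1 (chr11:106654213-106715281), an adhesion molecule at the contacts between endothelial cells, was at 24.5 to 35.5 TPM and then at 20.7 to 24.9, with a log2 fold change of −0.11 (95% confidence interval −0.23 to 0.01, edgeR adjusted p = 0.0867). Tek (chr4:94739086-94874976), also called TIE2, is the receptor of the angiopoietins that steady vessels, and Tie1 (chr4:118471191-118489849) is its co-receptor. Their log2 fold changes were −0.01 (95% confidence interval −0.14 to 0.11) and −0.05 (−0.18 to 0.08), and neither passed the test. TPM means sit 0.20 lower at P21 on the log2 scale than the TMM-scaled fold changes used here, in the median over all genes, so Tek and Tie1 are lower at P21 in TPM (17.4 against 14.98, and 16.3 against 13.6) but not on the tested scale. Scaled instead by the 15 further endothelial genes, the members' fold changes lay 0.12 lower in the median, and Pecam1 (−0.23) and Tie1 (−0.18) were then called lower, as was Tie1 (−0.22) once the GC trend of each library was taken out. Pecam1 was also called lower when Nova1 hu/hu E18.5 replicates 1, 4 or 6 or Nova1 hu/hu P21 replicate 2 was left out.

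Genes around the members in the same pathways were described from lists chosen with earlier results of these data known. Of 13 further VEGF and angiopoietin genes tested, 5 were called higher at P21 and 6 lower (median log2 fold change −0.11). The co-receptors Nrp1 (−1.43, SE 0.04) and Nrp2 (−1.41, SE 0.04) were lower, as Kdr was, and Angpt4, an angiopoietin (2.90, SE 0.35), was higher. Svep1, an extracellular matrix ligand of Tie1, was lower (−1.89, SE 0.10). Of 21 further barrier transporters, 12 were higher and 8 lower (median 0.39), led by Slco1a4, an organic anion transporter (3.98, SE 0.13), the lactate transporter Slc16a1 (1.54, SE 0.11), the thiamine transporter Slc19a3 (1.44, SE 0.15) and, downward, the receptor Ager (−1.42, SE 0.23). Of 14 junction genes, 6 were higher and 6 lower, with Jam3 (1.91, SE 0.05) upward and Cldn3 (−1.70, SE 0.31) and Cgn (−1.64, SE 0.10) downward, and many of these genes are also transcribed outside vessels. Of 18 Wnt barrier signalling genes, 5 were higher and 6 lower, among them the receptor Fzd4 (0.92, SE 0.11) and its ligand Ndp (0.83, SE 0.09) upward and the Wnt target Apcdd1 (−0.89, SE 0.06) downward.

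The other endothelial genes did not move as a block either. Of the 15, 8 were higher at P21 and 6 lower, with a median log2 fold change of 0.25. Ptprb, a receptor phosphatase that acts on Tek, rose (1.31, SE 0.07), while Rasip1 (−1.14, SE 0.06), the adherens junction protein Cdh5 (−0.94, SE 0.06) and Clec14a (−0.94, SE 0.09) fell. Of 6 caveolar and fenestral genes, 4 were higher, led by Ehd4 (1.29, SE 0.07) and Plvap, the diaphragm protein of leaky vessels (1.21, SE 0.09), and 2 were lower, led by Cav1 (−0.83, SE 0.11), with Cav2 upward (0.58, SE 0.05). Of 10 tip cell genes tested, 3 were higher and 5 lower, with Cxcr4 (−2.98, SE 0.12) the most changed, and then Apln (2.73, SE 0.20), Mcam (2.66, SE 0.06) and Unc5b (2.55, SE 0.09). Of 9 arterial genes, 5 were higher and 3 lower, with Gkn3 (3.74, SE 0.22) and Mgp (2.84, SE 0.15) upward, and of 6 venous genes, 2 were higher and 3 lower, with Nr2f2 (−1.49, SE 0.04) and Slc38a5 (−1.28, SE 0.09) downward. Of 5 leukocyte adhesion genes tested, 3 were higher and 1 lower.

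Markers of other cells moved with age as well. All 6 oligodendrocyte markers were higher at P21 (summed TPM 91.4 to 136 at E18.5 and 21434 to 24055 at P21), 6 of 7 astrocyte markers were higher, and all 6 proliferation genes were lower (median log2 fold change −4.08). Of 12 mural cell markers 7 were higher and 4 lower, with Myh11 (2.63, SE 0.17) and Acta2 (1.58, SE 0.15) leading, although the summed TPM of the list overlapped, from 319 to 436 at E18.5 and from 340 to 422 at P21. Of 10 microglia and macrophage markers 8 were higher and 2 lower, and all 7 meningeal fibroblast markers were lower (summed TPM 426 to 648 at E18.5 and 168 to 206 at P21). Of 7 erythroid markers tested 3 were higher, of 5 leukocyte markers tested 2 were higher, of 8 choroid plexus markers 1 was higher and 2 lower, and of 6 neuron markers 3 were higher and 3 lower. The part of these cells in the members' differences was not tested.

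The second comparison set P21 midbrain against P21 cortex. Most of the 10 genes were higher in midbrain, but by little except for Mfsd2a. Of the members, 8 were called higher in midbrain and 0 lower, while 37.9% of all 16345 genes were called higher and 37.7% lower; no member reached a 2-fold difference, against 7.81% of genes upward and 7.56% downward. The median log2 fold change was 0.18 over the members and 0.00064 over all genes, and regardless of direction the members' median (0.18) was below that of all genes (0.33). The midbrain and cortex libraries did not overlap for 3 members, Mfsd2a, Flt1 and Kdr, against 47.3% of all genes.

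Mfsd2a was at 91.5, 78.8, 71.8 and 80.4 TPM in Nova1 hu/hu cortex and at 86.3, 74.8, 73.8 and 83.3 in Nova1 wt/wt cortex, well under the lowest midbrain library at 127. The log2 fold change was 0.76 (SE 0.05, edgeR adjusted p = 1.61e-12), or 1.69-fold. Kdr was at 10.4 to 13.2 TPM in cortex and 13.7 to 16.1 in midbrain (log2 fold change 0.31, SE 0.05, edgeR adjusted p = 5.50e-06), and Flt1 at 18.6 to 22.6 and 23.3 to 26.8 (0.19, SE 0.04, edgeR adjusted p = 7.60e-05). For these receptors the regions were separated by less than the spread within either. Slc2a1 (log2 fold change 0.33, SE 0.08), Abcb1a (0.23, SE 0.05) and Pecam1 (0.17, SE 0.05) were called higher with overlapping libraries. Tek (0.14, SE 0.06, edgeR adjusted p = 0.0322) and Tie1 (0.14, SE 0.06, edgeR adjusted p = 0.0528) were near the limit of the test. Tek lost its call without Nova1 hu/hu cortex replicate 1 or replicate 4 of either midbrain group. Tie1 lost it without any of 9 of the 16 libraries (replicates 1 and 3 of Nova1 hu/hu cortex, 3 and 4 of Nova1 wt/wt cortex, 2 and 3 of Nova1 hu/hu midbrain, and 1, 2 and 4 of Nova1 wt/wt midbrain) and with all 28 libraries in 1 fit. Both lost it when scaled by the 15 further endothelial genes. Cldn5, at 35.3 to 50.2 TPM in cortex, had a difference of 0.01 (95% confidence interval −0.15 to 0.17), and Ly6c1, at 69.6 to 93.2, one of −0.08 (−0.19 to 0.02), called lower in midbrain (−0.11) without Nova1 wt/wt cortex replicate 3. With the GC trend of each library taken out, Cldn5 (0.16) was called higher in midbrain, Ly6c1 (−0.12) lower, and Tek (0.08) was no longer called. The Flt1 to Kdr ratio was lower in midbrain by 0.12 on the log2 scale (exact permutation p = 0.0124, adjusted p = 0.0622 over 15 ratio tests), with overlapping libraries.

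**Figure D3:**
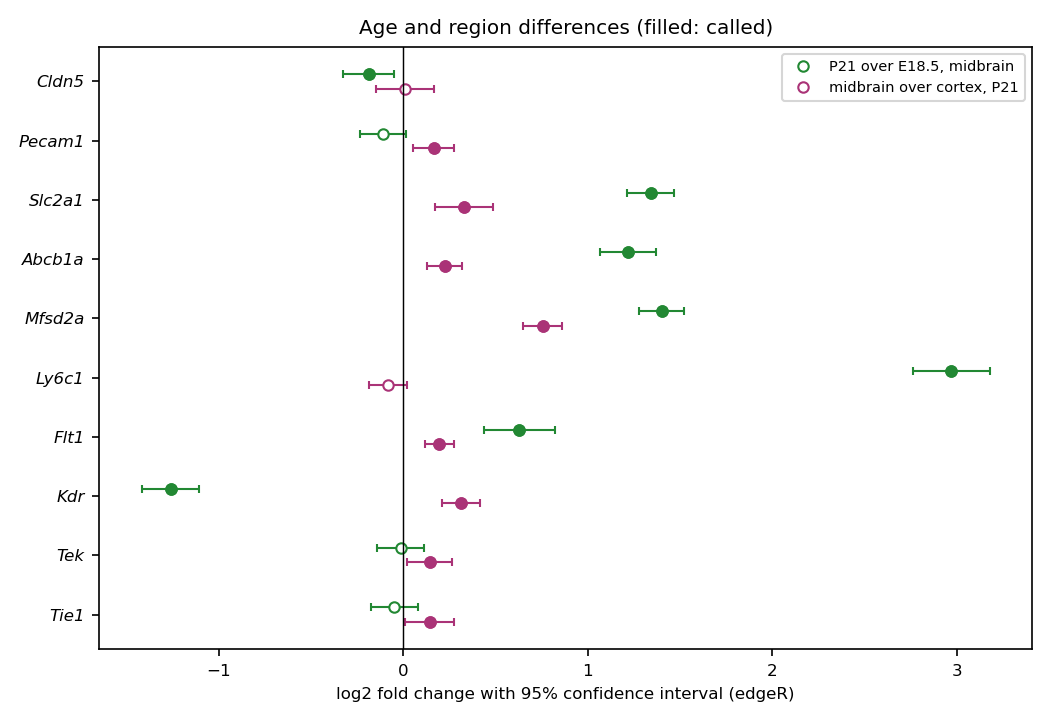
Log2 fold change of each gene (x axis) with its 95% confidence interval, for P21 over E18.5 midbrain (green) and for midbrain over cortex at P21 (purple), filled where called. Age differences span −1.26 for Kdr to 2.97 for Ly6c1, while region differences lie between −0.08 and 0.76.

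Of the 15 further endothelial genes, 4 were higher in midbrain and 2 lower (median log2 fold change 0.03), with Egfl7, a secreted endothelial protein, the most changed (−0.60, SE 0.07), and then Cd93 (0.31, SE 0.06), Ptprb (0.25, SE 0.05) and Cdh5 (0.25, SE 0.06). Of the 13 VEGF and angiopoietin genes, 9 were higher and 2 lower, with the ligand Vegfd lower (−2.23, SE 0.15) and Angpt4 (1.45, SE 0.20), Svep1 (1.07, SE 0.14) and Pgf (1.002, SE 0.10) higher. Of the 21 transporters, 8 were higher and 5 lower, with Slc39a10 (−1.12, SE 0.04) lower and Lrp1 (0.72, SE 0.02) and Slc16a1 (0.58, SE 0.08) higher. Of the 14 junction genes 7 were higher and 2 lower, and of the 18 Wnt barrier signalling genes 5 were higher and 5 lower, with the transcription factor Lef1 higher (2.41, SE 0.08) and the ligand Wnt7b lower (−0.79, SE 0.05). Of 6 caveolar and fenestral genes 5 were higher and 1 lower, of 10 tip cell genes 6 and 2, of 9 arterial genes 2 and 3, of 6 venous genes 3 and 1, and of 4 leukocyte adhesion genes 1 and 1. Among other cells, all 6 oligodendrocyte markers, 7 of 12 mural cell markers, 5 of 7 astrocyte markers and 4 of 7 meningeal fibroblast markers were higher in midbrain. Lower in midbrain were 8 of 10 microglia and macrophage markers, 5 of 6 neuron markers, 5 of 6 proliferation genes and 3 of 8 choroid plexus markers. Of 7 erythroid markers 1 was higher, and of 6 leukocyte markers 1 was higher and 2 lower. The part of these cells in the members' differences was not tested.

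The third comparison set Nova1 hu/hu against Nova1 wt/wt within each age and region, which is the question the mice were made for. None of the 10 genes was called in any of the 3 comparisons, and the genotypes overlapped for every member in each. The share of all genes whose genotypes overlapped, or that kept the same direction in every pair, was not counted. Over all genes, edgeR called 0 of 15540 genes at E18.5 (0%) and, at P21, 0 of 15972 in midbrain (0%) and 0 of 15767 in cortex (0%). DESeq2 called 0, 1 and 0, and edgeR with the replicate number as a block called 0, 4 and 0, none of them a member. At the same thresholds the study itself reported Gkn3 as its only significant gene, lower in Nova1 hu/hu P21 midbrain. Gkn3, on the arterial list here, was tested but not called in the fit without the block. The cause of this difference was not tested. An unadjusted p under 0.05 was reached by 201 genes at E18.5 (1.29%), by 426 in midbrain at P21 (2.67%) and by 450 in cortex (2.85%), and by 1, 1 and 0 of the 10 members. The 95% confidence intervals of all 10 members lay within a 1.5-fold difference in each of the 3 comparisons, so larger differences fall outside these intervals. The widest interval was that of Ly6c1 at E18.5, from −0.19 to 0.56 on the log2 scale.

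Tie1 had the largest genotype difference of the 10. At E18.5 it was at 12.6, 15.5, 17.7, 13.9, 14.7 and 13.8 TPM in Nova1 hu/hu mice 1 to 6 and at 15.6, 17.9, 20.8, 17.3, 20.7 and 15.3 in the Nova1 wt/wt mice of the same numbers. The Nova1 hu/hu library was the lower one in all 6 pairs, although the groups overlapped. The log2 fold change was −0.29 (SE 0.09, edgeR unadjusted p = 0.00332, adjusted p = 0.9999). With the replicate number as a block the unadjusted p was 7.1e-05 and the adjusted p 0.93, and over 21 alternatives the adjusted p ran from 0.93 to 1. In P21 midbrain the difference was −0.10 (95% confidence interval −0.24 to 0.04), with Nova1 hu/hu higher in 1 of 4 pairs, and in P21 cortex it was 0.10 (−0.12 to 0.32), with Nova1 hu/hu higher in 2 of 4. The partner receptor Tek was within −0.05 at E18.5, and the Tie1 to Tek ratio at E18.5 differed by −0.24 on the log2 scale (exact permutation p = 0.0671, adjusted p = 0.20 over 15 ratio tests).

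Abcb1a was the other member with an unadjusted p under 0.05 in the fit without the replicate block. With the block, 2 members at E18.5, 1 in P21 midbrain and 2 in P21 cortex had one. Among all genes the block gave more of them too, 813 of 15540 at E18.5, 735 of 15972 in P21 midbrain and 897 of 15767 in P21 cortex. The block adds Kdr at E18.5, where Nova1 hu/hu was higher in 1 of 6 pairs (edgeR unadjusted p = 0.0130, adjusted p = 0.93). It also adds Ly6c1 (edgeR unadjusted p = 0.0324, adjusted p = 0.86) and Tek (edgeR unadjusted p = 0.0347, adjusted p = 0.86) in cortex. In P21 midbrain Abcb1a was at 28.1, 30.6, 28.9 and 31.5 TPM in Nova1 hu/hu and at 25.8, 26.04, 26.6 and 30.4 in Nova1 wt/wt libraries, higher in Nova1 hu/hu in 4 of 4 pairs with overlapping groups. Its log2 fold change without the block was 0.13 (SE 0.06, edgeR unadjusted p = 0.0405, adjusted p = 1). At E18.5 the difference was 0.06 (SE 0.12) and in P21 cortex 0.10 (SE 0.07).

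All 10 members had positive log2 fold changes in P21 cortex, from 0.0064 for Slc2a1 to 0.16 for Tek, with a median of 0.10 against −0.00075 over all genes. The 10 genes share the same 8 libraries, so the common sign is not 10 observations. Tek was at 11.5, 14.1, 13.2 and 15.5 TPM in Nova1 hu/hu and at 11.5, 12.2, 13.1 and 12.01 in Nova1 wt/wt cortex, higher in 4 of 4 pairs, and its unadjusted edgeR p was 0.0729. In Nova1 hu/hu replicate 4, Cldn5 (49.5 TPM), Pecam1 (23.6), Kdr (13.2), Tek (15.5) and Tie1 (14.9) were at or near the top of the group, and without that library the median fell to 0.05. In Nova1 hu/hu replicate 3, 0 members were above the group mean, and without that library the median rose to 0.14. In the other comparisons the signs were mixed, with 3 members positive and 7 negative at E18.5 (median −0.02) and 4 positive and 6 negative in P21 midbrain (median −0.0076). These tallies depend on the scaling: by the 15 further endothelial genes, 6 members were positive at E18.5, 9 in P21 midbrain (median 0.077) and 10 in P21 cortex. With single libraries left out, 8 to 10 were positive in P21 cortex.

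**Figure D4:**
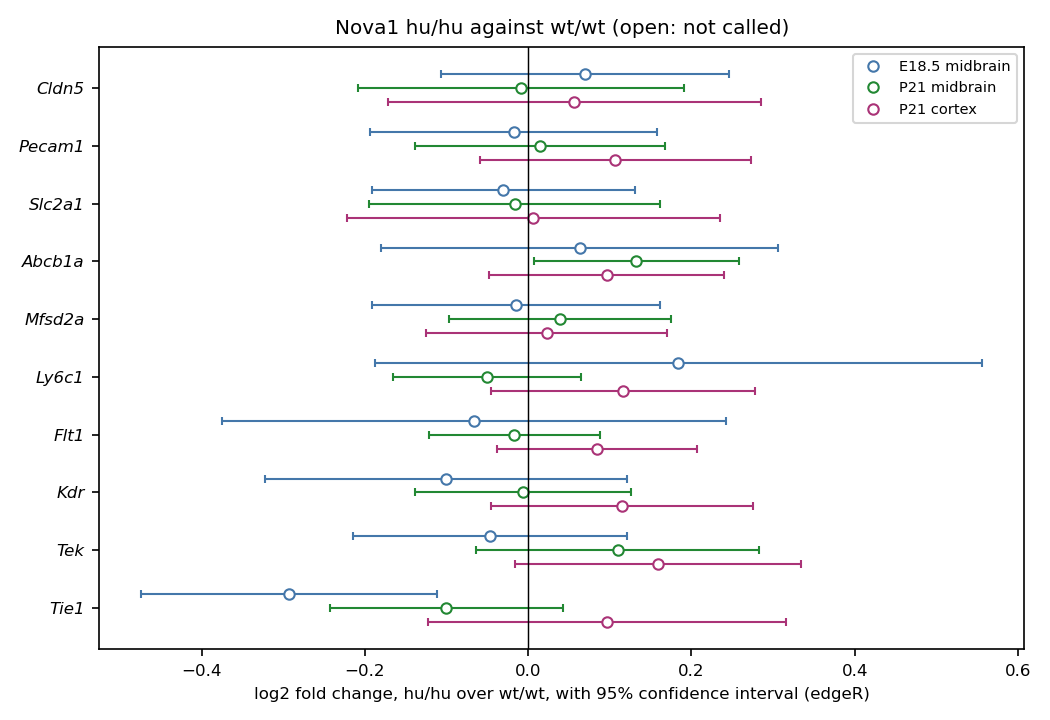
Log2 fold change of Nova1 hu/hu over Nova1 wt/wt (x axis) for each gene with its 95% confidence interval, in midbrain at E18.5 (blue) and P21 (green) and in cortex (purple), all open because none was called. The values lie between −0.29 for Tie1 at E18.5 and 0.18 for Ly6c1 at E18.5, and all 10 are above 0 in P21 cortex.

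Whether the genotype difference itself changed was tested as an interaction. No member was called for a different genotype effect between the ages in midbrain (0% of 16330 genes called) or between the regions at P21 (0% of 16345 genes called). Among all genes, 303 and 373 had an unadjusted p under 0.05, and none of the 10 members did. DESeq2 called 0 genes in both.

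Covariation across single libraries was described after the mean of each genotype, age and region was taken out, so that it reflects differences between libraries of one group. Mice, dissections and library preparation cannot be told apart in it. The paper states that both sexes were used equally for RNA sequencing, and sex was not taken out here. Over the 28 libraries the median Pearson r of the 45 pairs of members was 0.32, where the median over pairs of all 16729 genes was 0.0031, and 17.8% of member pairs but 4.06% of all pairs exceeded 0.5. Within the sets the median r was 0.35 at E18.5 (12 libraries) and, at P21, 0.16 in midbrain (8) and 0.35 in cortex (8). The P21 midbrain value rested on a single library, since it was −0.13 without Nova1 hu/hu replicate 1, and the P21 cortex value was 0.18 without Nova1 hu/hu replicate 3. With the replicate number also taken out, the medians were 0.09 at E18.5, 0.04 in P21 midbrain and 0.59 in P21 cortex. All genes of a library share its depth, its dissection and its base composition bias, and the values are descriptions.

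The pair with the highest r was Flt1 and Kdr, although they moved apart with age, at 0.82 over the 28 libraries (0.88 at E18.5, 0.68 in midbrain at P21 and 0.54 in cortex). Slc2a1, Mfsd2a and Ly6c1 formed a second group at P21, with r of 0.81 to 0.82 in midbrain and 0.70 to 0.86 in cortex, and of 0.30 to 0.70 at E18.5. Against Tek their r ran from −0.71 to −0.42 in P21 midbrain and from −0.69 to −0.55 in P21 cortex, and Mfsd2a and Flt1 stood at −0.86 and −0.64. In P21 midbrain, replicate 3 of both genotypes had the highest Slc2a1, Mfsd2a and Ly6c1 TPM and the lowest Tek TPM of its group. In P21 cortex, replicate 1 of both genotypes did so. Same-numbered libraries deviated together, so the libraries of a set are not all separate observations. The part of the replicate number in these r values was not tested. Cldn5 and Tek had an r of 0.60 over all libraries and of 0.67 and 0.73 in the P21 sets. Abcb1a and Tie1 had an r of 0.87 at E18.5, but 0.47 and 0.27 at P21. Tek and Tie1, the receptor pair, had 0.02 at E18.5, 0.31 in midbrain at P21 and 0.37 in cortex.

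**Figure D5:**
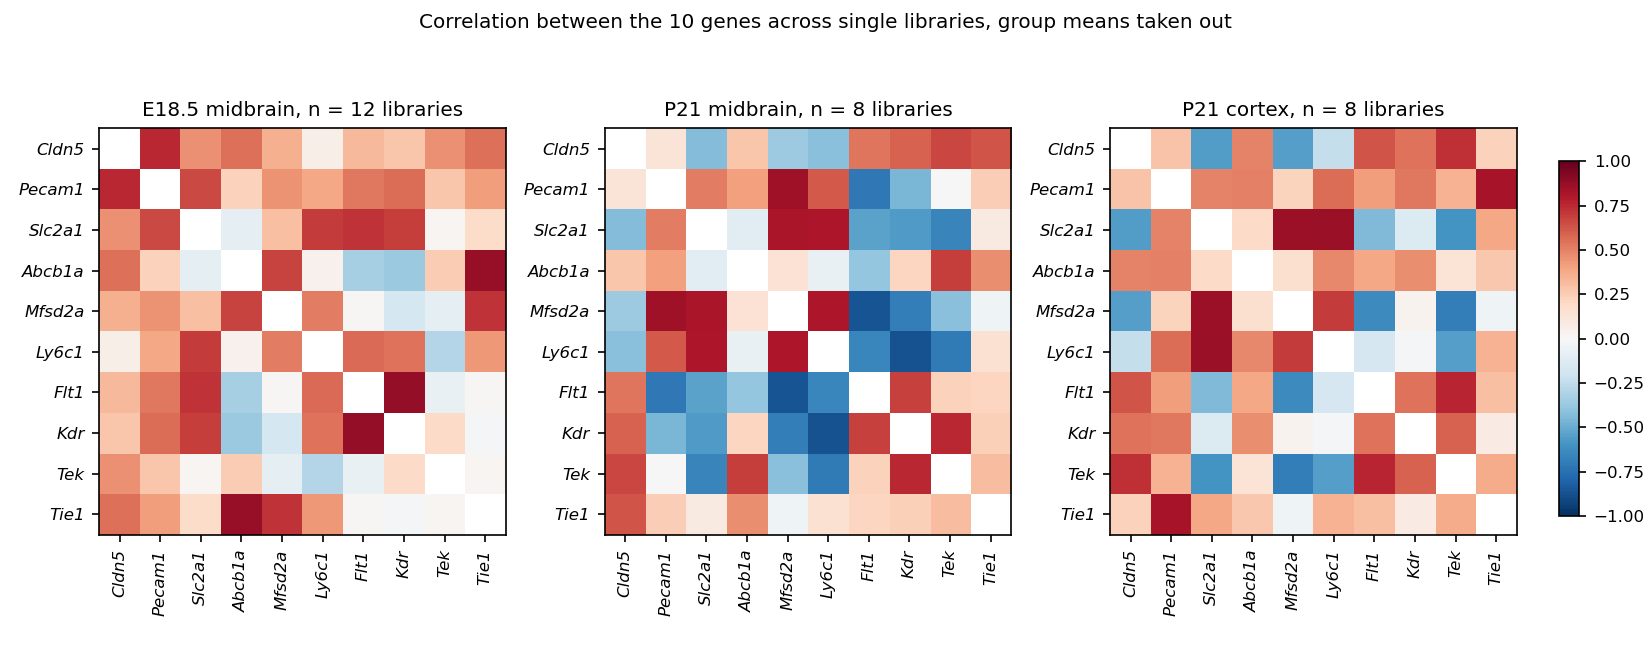
Pearson r between each pair of the 10 genes over the libraries of 1 set, on log2 CPM with group means taken out (colour, from −1 to 1), for 12 libraries of midbrain at E18.5 and, at P21, 8 of midbrain and 8 of cortex. Flt1 and Kdr are positive in each set (0.88, 0.68 and 0.54), and at P21 Slc2a1, Mfsd2a and Ly6c1 are positive with each other and negative with Tek.

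The mean of the 10 members, used as an index of each library, was followed best by Pecam1 (r with the mean of the other 9 members 0.74) and Tie1 (0.54), and least by Tek (0.09) and Abcb1a (0.26). The 15 further endothelial genes, averaged, had an r with the index of 0.85 at E18.5, 0.79 in midbrain at P21 and 0.70 in cortex. Without the 2 libraries farthest from the list's median these were 0.65, 0.71 and 0.53. Taken singly, all 15 were positive over the 28 libraries, from 0.04 for Emcn to 0.75 for Esam (median 0.44, against 0.05 over all genes). Other vascular lists differed between sets. In P21 midbrain the r was 0.48 for Wnt barrier signalling genes, 0.30 for VEGF and angiopoietin genes and −0.05 for barrier transporters. It was −0.07 for caveolar and fenestral, −0.16 for tip cell, −0.45 for arterial, −0.47 for junction, −0.49 for leukocyte adhesion and −0.58 for venous genes. At E18.5 these lists had 0.51 to 0.84, apart from venous genes (−0.29), and in P21 cortex −0.30 to 0.86. Among the 16729 genes ranked by likeness to the index, Esam stood at rank 84 and Emcn at rank 8614. The 15 are so small a share of the genes ranked that few or none would be near the top by number alone. The 50 genes outside the members most like the index held 0 of the 15, so this count says little about the index. The 10 genes most like it, outside the members, were Uba7 (r = 0.88), Bcas1 (0.87), Plxnb1 (0.85), Col4a1 (0.84), Gpr56 (0.84), Lrp10 (0.84), Tspan9 (0.83), S100b (0.83), Klhl17 (0.83) and Tln1 (0.83) over 28 libraries. Col4a1 encodes a collagen of the vascular basement membrane, whereas Bcas1 is known from oligodendrocytes and S100b from astrocytes.

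A base composition trend moved with the index. Genes were put into 20 equal bins by GC content, and the difference in median deviation between the most and the least GC-rich bin ranged from −0.24 to 0.33 log2 units over the E18.5 libraries and from −0.15 to 0.17 over the P21 libraries. The Pearson r of this contrast with the index was 0.85 at E18.5 (Spearman's rho 0.76), 0.54 in P21 midbrain (0.48) and 0.63 in P21 cortex (0.57), and 0.70, 0.55 and 0.69 without the 2 libraries farthest from the median contrast. With the trend taken out, the members' median r was 0.25 at E18.5, 0.13 in midbrain at P21, 0.36 in cortex and 0.27 over all libraries. The r of Flt1 and Kdr was then 0.84 over 28 libraries, and at E18.5 that of Cldn5 and Pecam1 went from 0.76 to 0.28. Of the 10 most alike genes 3 were still among the first 10 (Uba7, Bcas1 and S100b), now with Rgs5, a pericyte marker (0.85), in the second place, and the median GC content of the 10 genes went from 56.4% to 45.9%. Markers of other cells also moved with the index at E18.5, with an r of 0.84 for mural cell markers, 0.87 for oligodendrocyte markers, 0.73 for astrocyte markers, 0.71 for microglia and macrophage markers, −0.54 for erythroid markers and −0.55 for neuron markers over 12 libraries. At P21 the r was 0.63 in midbrain and 0.73 in cortex for astrocyte markers, and 0.49 and 0.60 for oligodendrocyte markers. Mural cell markers had 0.52 and 0.31, and microglia and macrophage markers 0.43 and 0.18. The r of the erythroid markers was 0.52 in midbrain and 0.45 in cortex, and that of the neuron markers 0.30 and −0.65. Without the 2 libraries farthest from the list's median, the P21 r was 0.15 and 0.09 for astrocyte and 0.92 and 0.62 for oligodendrocyte markers. It was 0.86 and 0.41 for mural cell and 0.23 and −0.50 for microglia and macrophage markers. Erythroid markers had 0.63 and 0.43, and neuron markers 0.04 and −0.44. At E18.5 the trimmed r was 0.61 for mural cell, 0.84 for oligodendrocyte and 0.56 for astrocyte markers. It was 0.53 for microglia and macrophage, −0.64 for erythroid and −0.84 for neuron markers. The part of these cells in the covariation was not tested.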

How the data were processed

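Polyadenylated RNA was sequenced by the authors as paired 125-base reads, aligned to mm10 with OLego and counted per gene with Quantas. The annotation version and any use of strand are not given in the sources used here, so overlapping genes (for Slc2a1, Abcb1a, Flt1 and Kdr) are uncertain. The deposited expected counts (not whole for 751 to 2715 genes a library) were rounded for tests. The deposited RPKM values follow from those counts. The deposited exon lengths, another column, gave TPM. The members and lists were chosen with earlier results of these data known.

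Groups came from the labels. edgeR 4.0.16 (R 4.3.3) quasi-likelihood tests, two-sided, with TMM factors and filterByExpr compared genotypes (per set), ages and regions (both genotypes as terms) and their interactions. A gene was called at the study's thresholds, an unadjusted p under 0.05 together with an adjusted p (Benjamini-Hochberg) under 0.1. Log2 CPM used a prior count of 2. Ratios were compared by exact permutation tests. Endothelial genes outside the rule that are named as extremes (Esam, Emcn) were chosen after their values were seen. Whether midbrain and cortex came from the same mice is not given in the sources used here, and they were treated as separate. The tests were checked on simulated counts. Lists hold 208 entries, of which 1 was unmatched. Values of some list genes are not reported here.

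Same-numbered libraries of the 2 genotypes deviated together, with correlations of 0.313 to 0.566 at E18.5, 0.292 to 0.374 in midbrain at P21 and 0.305 to 0.391 in cortex, against medians of −0.144, −0.125 and −0.157 for other pairs. Across the P21 regions the same-numbered libraries correlated at −0.296 to −0.181 in Nova1 hu/hu, against a median of 0.146 for other pairs. In Nova1 wt/wt they correlated at −0.306 to −0.113, against 0.094. Across ages the values were −0.218 to 0.269 (other pairs −0.048) and −0.058 to 0.186 (−0.078). The main age and region tests treated all these libraries as separate, and the reason for the negative values was not tested. Alternatives were RLE factors, DESeq2 1.42.0, other filters and thresholds, a replicate block, scaling by endothelial genes, all libraries in 1 fit and each library left out. A correction of GC trends in 20 bins of genes was added after the data were seen.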

Additional observations from a re-analysis of the deposited data

Results flagged for a closer look

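Levels of the 10 genes were checked for a library that stands apart in each of the 6 groups, which makes 60 checks, and chance alone marks about 1 in 20. In E18.5 Nova1 hu/hu midbrain, Abcb1a was at 19.4 TPM in replicate 3, while the other 5 libraries lay between 11.7 and 14.6. Tek was at 14.0 TPM in replicate 6 of the same group, below the others at 17.0 to 18.8. No member changed its genotype or age call when either library was left out, except Pecam1, which was called lower with age without replicate 6.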

How the results depend on the processing

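Scaled by the 15 further endothelial genes, 4 in place of 2 members were called lower with age, since Pecam1 and Tie1 were added. With the GC trend of each library taken out, an alternative added after the data were seen, 1 member in place of 0 was called lower in midbrain than in cortex, namely Ly6c1. Leaving out each library in turn, 2 to 3 members were called lower with age, and 6 to 8 higher and 0 to 1 lower in midbrain, where Tie1 lost its call without any of 9 libraries and Tek without any of 3. The 1 lower member was Ly6c1, without Nova1 wt/wt cortex replicate 3.

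The replicate block (the number that pairs Nova1 hu/hu with Nova1 wt/wt libraries) changed no call of a member for genotype. Over all genes it gave 1 higher and 3 lower calls for genotype in P21 midbrain where the fit without it gave 0. For age, region and the interactions it also joined same-numbered libraries of different ages or regions, which are not known to be pairs. Calls of members were unchanged there too, but this is not a check of the pairing. Taking out the mean of each replicate number, the replicate block for the covariation, moved the median r of the members to 0.092 at E18.5, 0.59 in P21 cortex and 0.26 over all 28 libraries. It leaves mirrored deviations in same-numbered libraries of a set, so these values rest on fewer separate deviations than libraries. The median r was 0.41 at E18.5 and 0.37 over all libraries on log2(TPM + 1), 0.54 in P21 cortex and 0.37 over all libraries without TMM factors, and 0.29 at E18.5 with the genotype means left in. With the GC trend taken out it was 0.25 at E18.5 and 0.27 over all libraries. Leaving out each library gave 0.28 to 0.44 at E18.5, −0.13 to 0.24 in P21 midbrain, 0.18 to 0.43 in P21 cortex and 0.25 to 0.37 over all libraries.

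Differences that were not called changed sign in places. Scaling by the endothelial genes turned the genotype log2 fold change at E18.5 for Pecam1 0.015, Slc2a1 0.0094, Mfsd2a 0.023, in P21 midbrain for Cldn5 0.075, Slc2a1 0.060, Ly6c1 0.033, Flt1 0.069, Kdr 0.080, and the region difference of Cldn5 −0.0010. The GC trend turned Cldn5 in P21 midbrain to 0.022. With single libraries left out, these log2 fold changes also crossed 0. For genotype at E18.5 they ran from −0.080 to 0.019 for Pecam1, −0.089 to 0.0091 for Slc2a1, −0.025 to 0.12 for Abcb1a, −0.059 to 0.040 for Mfsd2a, −0.19 to 0.018 for Flt1 and −0.077 to 0.0041 for Tek. For genotype in P21 midbrain they ran from −0.089 to 0.041 for Cldn5, −0.026 to 0.072 for Pecam1, −0.092 to 0.051 for Slc2a1, −0.0087 to 0.10 for Mfsd2a, −0.048 to 0.013 for Flt1 and −0.048 to 0.030 for Kdr. For genotype in P21 cortex they ran from −0.019 to 0.13 for Cldn5, −0.084 to 0.14 for Slc2a1, −0.050 to 0.074 for Mfsd2a and −0.0097 to 0.17 for Tie1. For age they ran from −0.041 to 0.013 for Tek. For region they ran from −0.027 to 0.046 for Cldn5. The cause was not tested.

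RLE size factors, DESeq2, no filter, an adjusted p under 0.05, a filter of 10 counts in every library and all 28 libraries in 1 fit kept every count of called members within 1.5 times. Depth limits Ly6c1 most, with 64 counts in its lowest E18.5 library. The order of levels was the same by RPKM.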
